A study of Mus musculus with 33 samples.

Results

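Mouse ovaries labelled KO (anestrus), anestrus meaning the absence of cycles, were set against ovaries labelled wild type, at the stage labelled E. The comparison took the 4 libraries whose titles name KO and whose stage label reads KO (anestrus), and the 4 libraries labelled E, out of 33 ovary libraries in the series, and covered the 16944 genes that passed the expression filter of 54347 in the table. Polyadenylated RNA was sequenced in 3 experiments, and both groups belong to experiment 3, which also held 4 libraries labelled DE and 4 labelled PE. All 16 libraries of experiment 3 carry the genotype label WT, including those labelled KO (anestrus), so their title and stage label disagree with their genotype label. The series as a whole includes Fshb (-/-) mice, but no label of these 4 libraries names the gene. The stage names are not spelled out; in common use E stands for estrus, DE for diestrus and PE for proestrus. The labels give no age or strain and do not say that libraries of a group came from separate animals. The p-values below therefore measure spread between libraries, which may be technical. This spread was estimated from all 16 libraries of experiment 3 together, so the DE and PE libraries also set it.

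Follicle-stimulating hormone (FSH) is a pituitary hormone made of a common alpha subunit and the beta subunit encoded by Fshb. It binds its receptor on granulosa cells, drives follicles past the early antral stage, and induces aromatase, inhibin subunits and the receptor for luteinizing hormone (LH). Theca cells around the follicle make androgens under LH, and granulosa cells turn these into estrogens. After ovulation the follicle wall becomes a corpus luteum, a vascular gland that takes up cholesterol and makes progesterone. Mice without FSH are known to have small ovaries whose follicles stop growing before the antral stage and which form no corpora lutea.

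Total counts were 10890629 to 14279903 in the KO (anestrus) libraries and 10878724 to 15925103 in the E libraries. On the first principal component of experiment 3 (51.9% of the variance) E replicate 3 stood at 63.8, beside the PE libraries (61.2 to 80.6), while E replicates 1, 2 and 4 stood at -74.4, -60.7 and -45.8. DE replicate 3 stood at -63.9, away from the other DE libraries (55.9 to 92.2). The 4 KO (anestrus) libraries stood together at -90.4 to -65.5. The median coefficient of variation over genes was 6.96% among the KO (anestrus) libraries and 11.8% among the E libraries. Among the DE and PE libraries it was 15.8% and 12.9%. Genes of the oviduct epithelium moved with this split: the summed level of 12 such genes was 234 to 280 CPM (library-size-scaled counts) in the KO (anestrus) libraries, against 183 to 5133 CPM in the E libraries, where the highest was replicate 3. Overall counts and the counts of gene lists are therefore also given without E replicate 3 and DE replicate 3, a setting chosen after seeing the data; lists with no such count had the same count in both.

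Fshb itself did not check the labels. It had 93, 114, 93 and 90 counts in the KO (anestrus) libraries, against 50, 170, 0 and 60 counts in the E libraries, and the groups overlapped (log2 fold change 0.58 ± 1.08, SE; edgeR adjusted p = 0.74; log2 fold change 1.24 without E replicate 2). Counts per gene do not show whether reads came from an intact or a targeted allele. For the E library with no Fshb count, 3 counts is the upper limit, for counting error only. Other pituitary hormone genes, Lhb, Prl, Gh and Tshb, had no counts in any of the 8 libraries. Ovarian markers were present in all 8 libraries, among them the oocyte gene Gdf9 and the granulosa gene Amh. The groups are called by their labels throughout, and each direction rests on those labels.

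Between KO (anestrus) and E ovaries, 3042 of 16944 genes passed a Benjamini-Hochberg adjusted p of 0.05 in edgeR's quasi-likelihood test (18.0%). They split evenly, with 1521 higher and 1521 lower in KO (anestrus) (8.98% each). The counts of gene lists below are descriptions, to be read beside this share of all genes tested in each direction. Some genes are on more than 1 list and are counted in each, so the lists are not separate findings. Of the 1263 that changed at least 2-fold (7.45% of all), more were lower: 458 were at least 2-fold higher (2.70%) and 805 at least 2-fold lower (4.75%). Without E replicate 3 and DE replicate 3 the count was 3546, of which 1641 were higher and 1905 lower, and 2637 were called in both fits. It was 2025, 2019 and 1920 without KO (anestrus) replicates 1, 3 and 4, and 5288 in limma voom. With the compared groups fitted alone, without DE and PE libraries, it was 4214. The groups did not overlap in 29.8% of all genes tested. The median log2 fold change of all genes tested was -0.01, and every fold change below is KO (anestrus) minus E on the log2 scale with its standard error.

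**Figure D1:**
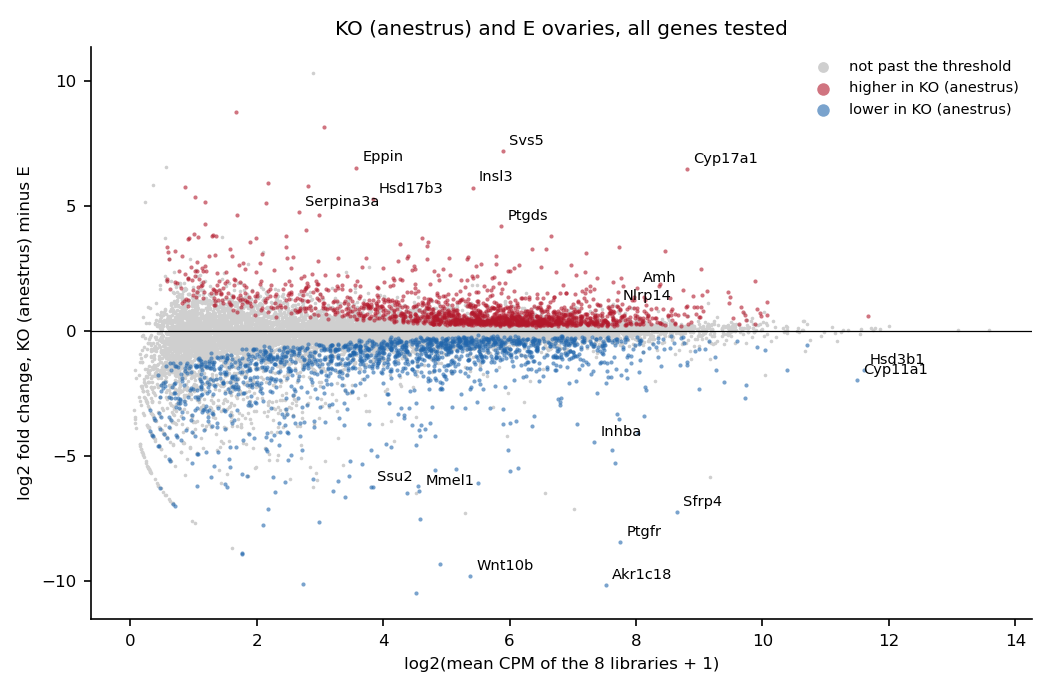
Log2 fold change of KO (anestrus) minus E (vertical axis) against the log2 mean CPM plus 1 of the 8 libraries (horizontal axis) for the 16944 genes tested. Red points are the 1521 genes called higher and blue points the 1521 called lower; the labelled genes include Cyp17a1 and Svs5 at the top and Akr1c18 and Wnt10b at the bottom. Fitted values of genes with almost no counts in a group depend on a prior count.

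Genes of granulosa cells moved in both directions. Transcripts of the activin and inhibin beta subunits were far lower in KO (anestrus) ovaries, and Amh, which encodes anti-Müllerian hormone and is made by small growing follicles, was higher. Inhba, which encodes the beta A subunit, had 10.4, 11.1, 7.67 and 27.1 CPM in the KO (anestrus) libraries, against 142, 557, 274 and 255 CPM in the E libraries. Every KO (anestrus) library lay below every E library, as in 12.5% of all genes tested; the log2 fold change was -4.45 ± 0.82 (edgeR adjusted p = 0.0024). Inhbb, which encodes the beta B subunit, had 49.1, 37.5, 41.4 and 23.2 CPM in the KO (anestrus) libraries, against 371, 500.4, 355 and 274 CPM in the E libraries. This was a log2 fold change of -3.31 ± 0.44 (edgeR adjusted p = 0.00022), again with no overlap. Inha, the alpha subunit shared by the inhibins, stood at 921, 883, 693 and 961 CPM in the KO (anestrus) libraries, against 739.7, 1088, 1031 and 692 CPM in the E libraries, with overlapping groups. Its log2 fold change was -0.04 ± 0.29 (edgeR adjusted p = 0.94), and its sign turned in some alternative settings. Amh had 385, 309, 453 and 438 CPM in the KO (anestrus) libraries, against 162, 94.6, 124 and 96.8 CPM in the E libraries. All 4 KO (anestrus) libraries lay above the highest E library, as in 17.3% of all genes tested (log2 fold change 1.73 ± 0.32; edgeR adjusted p = 0.0023).

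Of 30 tested genes of granulosa cells and the FSH response, 8 rose and 8 fell, with a median log2 fold change of 0.06; the counts were the same without E replicate 3 and DE replicate 3. Wnt10b, a WNT ligand, was nearly absent from KO (anestrus) ovaries, at 0.151, 0, 0.167 and 0 CPM, against 60.2, 158, 19.4 and 85.1 CPM in the E libraries (log2 fold change -9.81 ± 1.40; edgeR adjusted p = 0.00041). Runx2, a runt-domain transcription factor induced around ovulation, had 2.42, 3.2, 3.42 and 2.89 CPM in the KO (anestrus) libraries, against 162, 186, 76.4 and 115 CPM in the E libraries (log2 fold change -5.50 ± 0.75; edgeR adjusted p = 0.00029). Both genes separated the groups in all 8 libraries. Among the E libraries Wnt10b was highest in replicate 2 and lowest in replicate 3, as were Ptgfr and Sfrp4 of the luteal list below. Which cells carried Wnt10b was not tested. Cyp19a1, the aromatase that makes estrogens, had 1.89, 2.06, 1.75 and 1.58 CPM in the KO (anestrus) libraries, against 3.77, 21.5, 16.7 and 4.63 CPM in the E libraries. Its groups did not overlap, but E replicates 1 and 4 lay well below replicates 2 and 3, and the call (log2 fold change -2.67 ± 0.81; edgeR adjusted p = 0.036) ended without any 1 of the KO (anestrus) libraries or of E replicates 2 and 3 (adjusted p up to 0.096). Nap1l5 also fell (-2.01 ± 0.37; edgeR adjusted p = 0.0023). Among the genes that rose were Igf1, the growth factor made by granulosa cells of growing mouse follicles, Igf1r, its receptor, and Bmpr1b, a receptor of bone morphogenetic proteins. Igf1 had 352, 367, 341 and 379.6 CPM in the KO (anestrus) libraries, against 143, 116, 161 and 144 CPM in the E libraries (log2 fold change 1.35 ± 0.35; edgeR adjusted p = 0.018; 0.052 without E replicate 2). Fshr, the FSH receptor, had 47.5, 43.1, 44.4 and 44.6 CPM in the KO (anestrus) libraries, against 20.1, 22.2, 26.3 and 25.2 CPM in the E libraries. Its groups did not overlap, yet it did not pass (log2 fold change 0.94 ± 0.44; edgeR adjusted p = 0.15). In whole ovaries, fewer cells of a type and less RNA per cell cannot be told apart, here and in the results that follow.

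Genes of the corpus luteum were lower almost throughout in KO (anestrus) ovaries. This list, like the others, was chosen with earlier results of these data known, so its count and median are no independent support. Of 20 tested luteal genes 16 fell and 0 rose, with a median log2 fold change of -1.96 against -0.01 for all genes; 17 fell without E replicate 3 and DE replicate 3, and 14 to 17 fell when any 1 library was left out. Akr1c18, the enzyme that inactivates progesterone in the regressing corpus luteum, had 0.302, 0.0712, 0 and 0.931 CPM in the KO (anestrus) libraries, against 33.3, 1042, 29.2 and 353 CPM in the E libraries. All KO (anestrus) libraries were below 1 CPM while the E libraries spread widely among themselves. The log2 fold change was -10.19 ± 1.75 (edgeR adjusted p = 0.0015), -8.79 without E replicate 2 and -11.41 without KO (anestrus) replicate 4. Ptgfr, the receptor through which prostaglandin F2 alpha ends luteal function, had 1.21, 1.28, 1.25 and 1.02 CPM in the KO (anestrus) libraries, against 154, 991, 72.9 and 488 CPM in the E libraries (log2 fold change -8.47 ± 1.11; edgeR adjusted p = 0.00022; -7.62 without E replicate 2). Sfrp4, a secreted WNT antagonist, had 3.63, 6.76, 2.25 and 8.1 CPM in the KO (anestrus) libraries, against 543, 1656, 146 and 825 CPM in the E libraries (log2 fold change -7.26 ± 1.01; edgeR adjusted p = 0.00033; -6.61 without E replicate 2). The lowest E value of Akr1c18, Ptgfr and Sfrp4 was in each case that of replicate 3. Onecut2, a homeodomain transcription factor, showed the same pattern, at 0 to 0.186 CPM in the KO (anestrus) libraries, against 3.22 to 153 CPM in the E libraries (log2 fold change -9.32 ± 1.89; edgeR adjusted p = 0.0043; -8.15 without E replicate 2 and -9.92 without KO (anestrus) replicate 4). Vegfa, the vascular growth factor, had 28.9, 28.1, 26.3 and 23.8 CPM in the KO (anestrus) libraries, against 124, 164, 69.5 and 61.5 CPM in the E libraries, without overlap (log2 fold change -1.97 ± 0.27; edgeR adjusted p = 0.00029). Cited2, a transcriptional coregulator, fell too (log2 fold change -1.31 ± 0.20; edgeR adjusted p = 0.00066). Prlr, the receptor through which prolactin maintains the rodent corpus luteum, and Lhcgr, the LH receptor, did not pass. Prlr had 343, 413, 393 and 290.2 CPM in the KO (anestrus) libraries, against 879, 1129, 453 and 710.1 CPM in the E libraries (log2 fold change -1.14 ± 0.40; edgeR adjusted p = 0.062, and 0.034 without E replicate 3 and DE replicate 3). Lhcgr had 291, 367, 241 and 280.3 CPM in the KO (anestrus) libraries, against 811, 1245, 215 and 294 CPM in the E libraries, with overlapping groups (log2 fold change -1.12 ± 0.62; edgeR adjusted p = 0.21).

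Enzymes on the way from cholesterol to progesterone were lower, and Cyp17a1, which makes androgens, was higher. Of 20 tested genes of steroid production 9 fell and 3 rose (without E replicate 3 and DE replicate 3, 7 fell and 3 rose). Of those that fell, Hsd3b1, Akr1c18, Cyp11a1, Fdx1, Hsd17b7 and Star are also on the luteal list. Of those that rose, Cyp17a1 and Hsd3b6 are also on the theca list. Cyp11a1, which cuts the side chain of cholesterol to give pregnenolone, had 1212, 1370, 1171 and 967 CPM in the KO (anestrus) libraries, against 4861, 6607, 2407 and 4454 CPM in the E libraries. Hsd3b1, which converts pregnenolone to progesterone, had 1832, 1515, 1585 and 1365 CPM in the KO (anestrus) libraries, against 5069, 6013, 3247 and 4274 CPM in the E libraries. Neither gene showed overlap between the groups, and E replicate 3 was the lowest E library for both. The log2 fold changes were -1.96 ± 0.34 for Cyp11a1 (edgeR adjusted p = 0.0017) and -1.56 ± 0.23 for Hsd3b1 (edgeR adjusted p = 0.0005), and both calls held with any 1 library left out. Fdx1 and Fdxr, the ferredoxin and its reductase that pass electrons to the mitochondrial enzymes, fell alongside, with log2 fold changes of -1.66 ± 0.34 and -1.5 ± 0.26 (edgeR adjusted p = 0.0047 and 0.0013). Star, which carries cholesterol into the mitochondrion, had 200.5, 217, 405 and 92.4 CPM in the KO (anestrus) libraries, against 1367, 3236, 342 and 893 CPM in the E libraries. KO (anestrus) replicate 3 overlapped with E replicate 3, and the call (log2 fold change -2.67 ± 0.86; edgeR adjusted p = 0.044) ended without any 1 of the KO (anestrus) libraries or of E replicates 1, 2 and 4, the weakest value being -1.92 without E replicate 2 (adjusted p up to 0.13). Sult1e1, the sulfotransferase that inactivates estrogen, was higher, at 4.76, 9.26, 9.67 and 4 CPM in the KO (anestrus) libraries, against 0, 0, 0 and 0.463 CPM in the E libraries (log2 fold change 5.93 ± 0.96; edgeR adjusted p = 0.00087); without E replicate 4 the E libraries held no count of it. The number of steroid genes that fell was 5 without KO (anestrus) replicate 1, 2, 3 or 4 or E replicate 2, and the number that rose was 1 without E replicate 4.

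**Figure D2:**
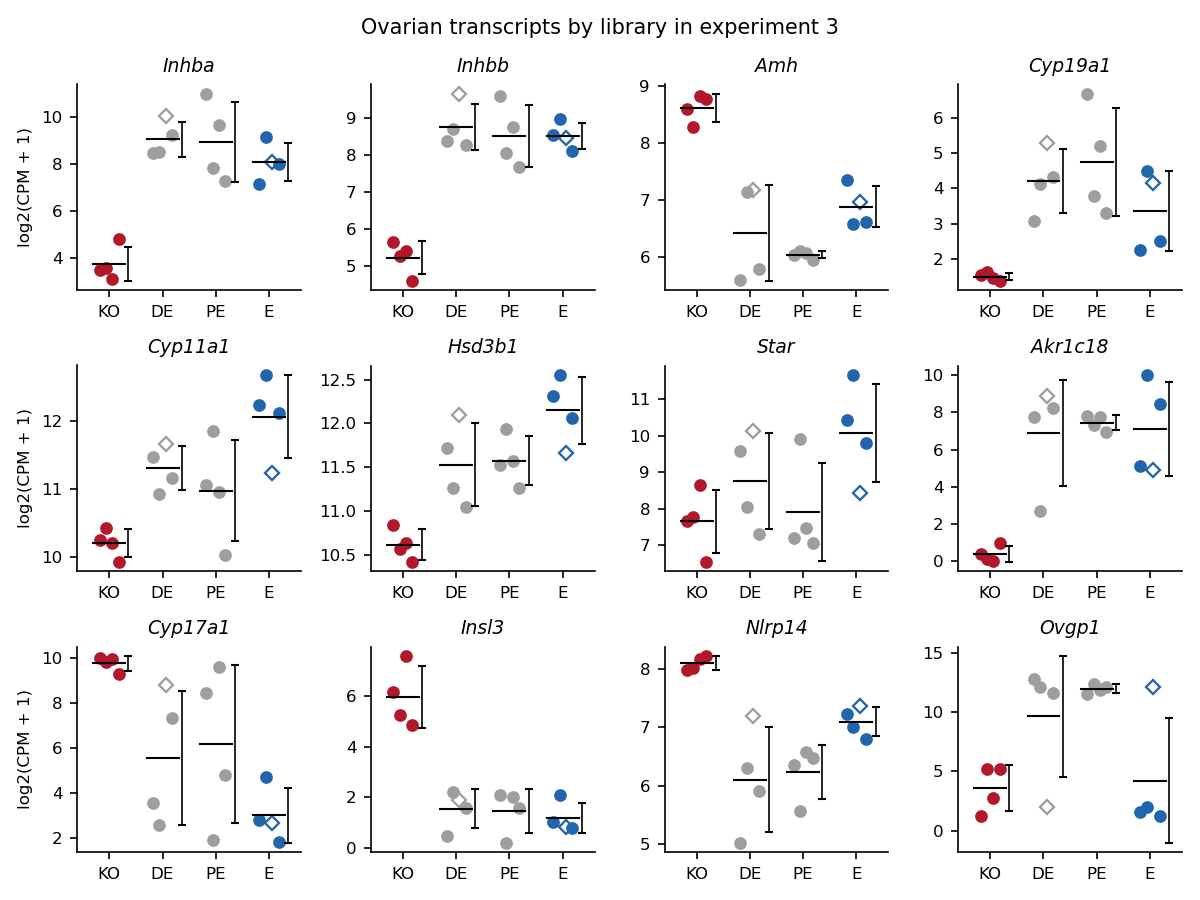
Log2(CPM + 1) of 12 genes (vertical axes) in the 4 libraries of each group of experiment 3 (horizontal axes), with KO standing for KO (anestrus). Points are libraries, open diamonds are DE replicate 3 and E replicate 3, bars are group means and whiskers are SD (n = 4). Inhba, Inhbb, Cyp19a1, Cyp11a1, Hsd3b1 and Akr1c18 are lower in all KO libraries than in all E libraries, Amh, Cyp17a1, Insl3 and Nlrp14 are higher, Star overlaps, and E replicate 3 is apart for Ovgp1.

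Androgen and hormone genes of theca and interstitial cells were higher. Of 18 tested theca genes 7 rose and 2 fell. Cyp17a1, the enzyme that makes androgens from progestagens, had 1016, 905, 998 and 622 CPM in the KO (anestrus) libraries, against 5.88, 25.2, 5.34 and 2.5 CPM in the E libraries. The groups lay far apart, with a log2 fold change of 6.48 ± 1.69 (edgeR adjusted p = 0.017; 0.052 without E replicate 4; log2 fold change 7.59 without E replicate 2). Its level was not uniform in the other stages, at 10.7, 4.95, 448 and 159 CPM in the DE libraries and 343, 2.71, 772 and 26.8 CPM in the PE libraries. Insl3, the peptide hormone of theca cells, had 70.2, 37.2, 192 and 28.2 CPM in the KO (anestrus) libraries, against 1.05, 3.25, 0.785 and 0.741 CPM in the E libraries. Hsd17b3, which makes testosterone and is known mainly from the testis, had 26.4, 15.4, 55.1 and 6.24 CPM in the KO (anestrus) libraries, against 1.05, 0.382, 0.235 and 1.02 CPM in the E libraries. For Insl3 and Hsd17b3 alike KO (anestrus) replicate 3 was the highest and replicate 4 the lowest of its group. The log2 fold change of Insl3 was 5.75 ± 0.87 (edgeR adjusted p = 0.00061), 4.92 without KO (anestrus) replicate 3 and 6.56 without E replicate 2. That of Hsd17b3 was 5.28 ± 0.80 (edgeR adjusted p = 0.00057; 4.59 without KO (anestrus) replicate 3). Hsd3b6, a relative of Hsd3b1, rose by 1.99 ± 0.59 (edgeR adjusted p = 0.031), a call that ended without KO (anestrus) replicate 2 (1.37) or 3 or E replicate 1, 2 or 4 (adjusted p up to 0.13). Hsd3b1 and Hsd3b6 are close copies, and how the authors' counting divided shared reads between them is uncertain. Pdgfra, the receptor of platelet-derived growth factor in stromal and theca cells, had 804, 770.4, 997 and 772 CPM in the KO (anestrus) libraries, against 246, 241, 258 and 362 CPM in the E libraries (log2 fold change 1.59 ± 0.17; edgeR adjusted p = 3.7e-05). Ptch1 and Boc, the receptor and a coreceptor of hedgehog ligands, rose with log2 fold changes of 0.86 ± 0.12 and 0.80 ± 0.12 (edgeR adjusted p = 0.00031 and 0.00048). Of 13 tested hedgehog genes 3 rose and 0 fell. Colec11, a collectin, and Enpep, an aminopeptidase, fell (-1.49 ± 0.26 and -1.16 ± 0.23; edgeR adjusted p = 0.0016 and 0.0036). Aldh1a1, a retinaldehyde dehydrogenase, did not pass, at 0.17 (edgeR adjusted p = 0.54).

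The genes with the highest fold changes included neighbours on chromosome 2 that are known for the male tract. Svs5 and Svs6 encode seminal vesicle secretory proteins, and Eppin encodes an epididymal protease inhibitor. Svs5 (GRCm38, chr2:164332740-164334396, plus strand) had 107, 105, 177 and 76.6 CPM in the KO (anestrus) libraries, against 1.14, 0.956, 0.706 and 0.278 CPM in the E libraries. Its log2 fold change was 7.20 ± 0.50 (edgeR adjusted p = 1.5e-06), with no overlap. Svs6 (chr2:164316751-164318453, plus strand) had 12.8, 14.9, 19 and 11.6 CPM in the KO (anestrus) libraries, against 0.175, 0, 0 and 0 CPM in the E libraries. In counts this was 733 in the KO (anestrus) libraries, against 2 in the E libraries, a ratio of counts per total of 365 (95% exact counting interval 101 to 3020; edgeR adjusted p = 2.3e-05). Eppin (chr2:164588343-164593594, minus strand) had 23.9, 24.2, 19.6 and 18.4 CPM in the KO (anestrus) libraries, against 0.263, 0.0637, 0.392 and 0.185 CPM in the E libraries (log2 fold change 6.54 ± 0.53; edgeR adjusted p = 4.1e-06). Of all 12 tested genes in the 301.5 kb from Svs6 to Wfdc6b 7 rose and 0 fell; this interval was chosen after the values were seen. The whey acidic protein family genes Wfdc6a, Wfdc8 and Wfdc6b rose with log2 fold changes of 2.02 ± 0.52, 3.83 ± 0.73 and 3.27 ± 0.79 (edgeR adjusted p = 0.016, 0.0029 and 0.011), and Wfdc8 stood at 4.85 without E replicate 3. Sdc4, a cell-surface proteoglycan, rose by 0.62 ± 0.12 (edgeR adjusted p = 0.0036). Wfdc2 had 3.02, 4.7, 5.17 and 4.65 CPM in the KO (anestrus) libraries, against 0.263, 0.191, 59.5 and 0.0926 CPM in the E libraries, with E replicate 3 far above the rest, and did not pass (log2 fold change -1.78; edgeR adjusted p = 0.43; 4.46 and 0.013 without E replicate 3 and DE replicate 3). Wfdc8 and Wfdc6b overlap on opposite strands, and whether the counting used strand is not given in the sources used here, so their counts are uncertain.

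**Figure D3:**
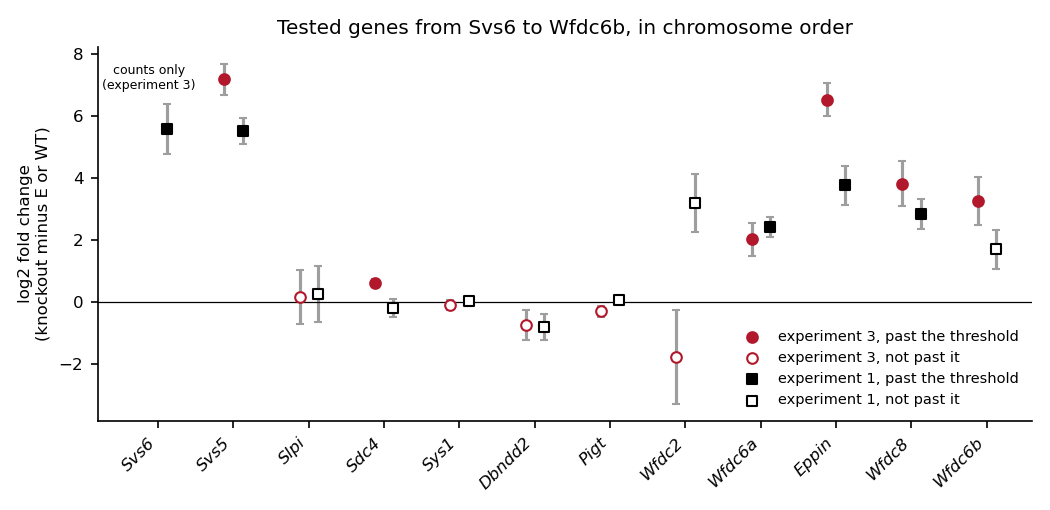
Log2 fold change (vertical axis) with its SE of the 12 tested genes from Svs6 to Wfdc6b in chromosome order (horizontal axis), KO (anestrus) minus E in experiment 3 (circles) and Fshb(-/-) minus WT in experiment 1 (squares); filled symbols passed an adjusted p of 0.05. Svs5, Eppin and 3 Wfdc genes rose and lie apart from Sys1, Dbndd2 and Pigt between them; no fitted value is drawn for Svs6 in experiment 3, where the E libraries held 2 counts.

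The promoters of Svs5 and Svs6 are printed because both genes were nearly absent from E ovaries and clearly present in KO (anestrus) ovaries, and because their start regions are almost the same sequence. Both come from RefSeq on GRCm38.p6, 250 bases before to 50 after the start, and capitals mark the bases that differ when the windows are aligned without gaps at a shift of 4 bases. Of 296 aligned bases 285 were equal (96.3%) and 11 differed.
Svs5 (chr2:164332515-164332814, plus strand): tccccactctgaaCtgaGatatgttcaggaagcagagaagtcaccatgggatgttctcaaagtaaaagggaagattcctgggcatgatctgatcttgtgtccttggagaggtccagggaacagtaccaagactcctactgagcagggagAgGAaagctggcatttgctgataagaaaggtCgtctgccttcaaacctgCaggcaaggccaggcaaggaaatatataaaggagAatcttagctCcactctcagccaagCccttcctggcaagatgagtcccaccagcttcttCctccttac
Svs6 (chr2:164316501-164316800, plus strand): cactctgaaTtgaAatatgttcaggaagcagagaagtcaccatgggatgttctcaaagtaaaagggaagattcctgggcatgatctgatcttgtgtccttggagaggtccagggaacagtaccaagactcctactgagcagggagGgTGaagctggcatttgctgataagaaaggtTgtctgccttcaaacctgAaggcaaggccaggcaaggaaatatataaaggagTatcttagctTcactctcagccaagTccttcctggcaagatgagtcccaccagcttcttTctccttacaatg
Because the windows reach past the start, the first transcribed bases are also alike, and reads from them could have been divided between both genes by the quantification.

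Other genes among the 10 largest increases were L3mbtl4, a chromatin-binding protein gene, Slc24a2, a sodium-calcium exchanger, Serpina3a, a serine protease inhibitor, and Ptgds, a prostaglandin D synthase. L3mbtl4 had 12.2, 14.2, 12.8 and 7.91 CPM in the KO (anestrus) libraries, against 0.175, 0.0637, 0.549 and 0 CPM in the E libraries (log2 fold change 5.82 ± 0.69; edgeR adjusted p = 8.7e-05; 7.01 without E replicate 3). Slc24a2 had 12.3, 8.33, 12.9 and 11 CPM in the KO (anestrus) libraries, against 0.439, 0.892, 0.628 and 0.648 CPM in the E libraries (log2 fold change 4.06 ± 0.41; edgeR adjusted p = 2.6e-05). Both were nearly even among the KO (anestrus) libraries, unlike Ptgds and Serpina3a. Ptgds had 73.9, 22, 311 and 30.1 CPM in the KO (anestrus) libraries, against 6.23, 7.26, 5.73 and 4.35 CPM in the E libraries, and its log2 fold change of 4.20 ± 0.75 (edgeR adjusted p = 0.0018) was 2.83 without KO (anestrus) replicate 3. Serpina3a had 6.27, 3.49, 29.2 and 2.42 CPM in the KO (anestrus) libraries, against 0.263, 0.255, 0.863 and 0.0926 CPM in the E libraries, with 4.76 ± 0.91 (edgeR adjusted p = 0.003), 3.42 without KO (anestrus) replicate 3 and 5.53 without E replicate 3. Replicate 3 was thus the highest KO (anestrus) library for Svs5, Insl3, Hsd17b3, Ptgds and Serpina3a.

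Among the 10 largest decreases, Cldn18, a tight-junction claudin, had no count in any KO (anestrus) library and 10.1, 14.4, 11.1 and 9.44 CPM in the E libraries. Against a floor of 3 counts per library (0.239 CPM) it was at least 47.3-fold lower in KO (anestrus) ovaries (edgeR adjusted p = 0.0046). It was even among the E libraries, replicate 3 included, in contrast to the luteal genes. In counts Cldn18 had 4, 92, 0 and 2 in the PE libraries and 95, 53, 99 and 40 in the DE libraries. Tnfrsf9, a receptor of the tumour necrosis factor family, had 0.151, 0.285, 0.167 and 0.0931 CPM in the KO (anestrus) libraries, against 10.2, 51.4, 1.26 and 12.6 CPM in the E libraries (log2 fold change -6.65 ± 1.38; edgeR adjusted p = 0.005; -5.41 without E replicate 2). Mmel1, a membrane metallopeptidase, had 0.529, 0.712, 0.333 and 0.465 CPM in the KO (anestrus) libraries, against 92.6, 51.7, 11.1 and 25 CPM in the E libraries (log2 fold change -6.42 ± 1.5; edgeR adjusted p = 0.0098). Plekhg4, a guanine nucleotide exchange factor, and Ssu2 fell with log2 fold changes of -6.49 ± 1.31 and -6.27 ± 1.42 (edgeR adjusted p = 0.0043 and 0.008), which were -5.87 without E replicate 4 and -5.57 without E replicate 2. In the PE libraries Mmel1 had 17, 408, 1 and 4 counts and Ssu2 had 8, 102, 3 and 6. Low levels of Cldn18, Mmel1 and Ssu2 were thus not particular to KO (anestrus) ovaries.

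Every oocyte gene that passed was higher in KO (anestrus) ovaries. Of 33 tested oocyte genes 12 rose and 0 fell, with a median log2 fold change of 0.96; 21 rose and 0 fell without E replicate 3 and DE replicate 3. With 1 library left out 3 to 9 rose and 0 fell: 6, 5, 4 and 4 without KO (anestrus) replicates 1 to 4, and 5, 7 and 3 without E replicates 2, 3 and 4. Of the 33, 29 had an unadjusted p under 0.05, DESeq2 called 23 and limma voom 29. Nlrp14, an oocyte gene of the NLR family, had 252, 257, 286 and 297 CPM in the KO (anestrus) libraries, against 149, 127, 162 and 109.6 CPM in the E libraries. Gdf9, the growth factor that oocytes send to granulosa cells, had 159.7, 161, 166 and 164 CPM in the KO (anestrus) libraries, against 100.5, 81.2, 92.1 and 69.6 CPM in the E libraries. Neither showed overlap, yet both missed the threshold: Nlrp14 at 0.99 ± 0.34 (edgeR adjusted p = 0.058, and 0.017 without E replicate 3 and DE replicate 3) and Gdf9 at 0.92 ± 0.31 (0.052 and 0.025). Zbed3 and Ooep, both members of the subcortical maternal complex of the mouse oocyte, rose with log2 fold changes of 0.76 ± 0.18 and 1.15 ± 0.29 (edgeR adjusted p = 0.01 and 0.015); the call of Ooep ended without E replicate 4. Nlrp5, another member of that complex, rose by 1.15 ± 0.31 and Zp2, a zona pellucida glycoprotein, by 1.08 ± 0.31 (edgeR adjusted p = 0.02 and 0.026). The call of Nlrp5 ended without KO (anestrus) replicate 3 or 4 or E replicate 4 (adjusted p up to 0.065), and that of Zp2 without KO (anestrus) replicate 2, 3 or 4 or E replicate 2 or 4 (up to 0.083). Dppa3, a maternal factor of the early embryo, had 32.9, 34.6, 44.9 and 44.3 CPM in the KO (anestrus) libraries, against 19.5, 20.5, 14.1 and 15.9 CPM in the E libraries (log2 fold change 1.16 ± 0.29; edgeR adjusted p = 0.015). Kit, the receptor tyrosine kinase of oocytes and also of theca and other cells, had 209, 138, 176 and 132 CPM in the KO (anestrus) libraries, against 82.1, 49, 52.1 and 47.7 CPM in the E libraries (log2 fold change 1.5 ± 0.27; edgeR adjusted p = 0.0022).

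Some genes that make, take up and store cholesterol were lower. Of 23 tested genes of cholesterol synthesis 3 fell and 0 rose, near the 8.98% of all genes tested that fell. This count is not read as a result about the list. It was 7 without E replicate 3 and DE replicate 3, and 5 without E replicate 3. Without KO (anestrus) replicate 1, 2, 3 or 4 or E replicate 2 it was 1. Dhcr7, the last enzyme of the pathway, had 44.4, 53.4, 52.1 and 37.3 CPM in the KO (anestrus) libraries, against 213, 270.0, 119 and 185 CPM in the E libraries (log2 fold change -2.07 ± 0.47; edgeR adjusted p = 0.0078). Hsd17b7, which acts in cholesterol synthesis and in the rodent corpus luteum as an estrogen-activating enzyme, had 55.7, 48.7, 48 and 40.9 CPM in the KO (anestrus) libraries, against 607, 1299, 44.3 and 92.3 CPM in the E libraries. E replicate 3 lay within the KO (anestrus) range; the call (log2 fold change -3.40 ± 0.96; edgeR adjusted p = 0.026) ended without any 1 of the KO (anestrus) libraries or E replicate 2, where the value was -2.36 (adjusted p up to 0.089). Fdps, a synthase of the mevalonate pathway, fell too (log2 fold change -1.13 ± 0.35; edgeR adjusted p = 0.04), a call that ended without any 1 of the KO (anestrus) libraries or of E replicates 1 and 2 (adjusted p up to 0.12). Hmgcs1, at the start of that pathway, did not pass (-0.92 ± 0.34; edgeR adjusted p = 0.078), but did without E replicate 3 and DE replicate 3 (-1.19, 0.0076).

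Of 23 tested genes of lipid uptake and storage 6 fell and 1 rose (without E replicate 3 and DE replicate 3, 9 fell and 1 rose). This list shares Plin1, Cidec and Fabp4 with the adipocyte list, and Scarb1, which fell, with the luteal list. The 10 adipocyte genes summed to 117 to 980 CPM in the KO (anestrus) libraries, highest in replicate 2, against 219 to 1330 CPM in the E libraries. Whether adipocyte content bears on the lipid genes was not tested. Plin4 and Plin5, which coat lipid droplets, fell most. Plin4 had 4.91, 32.9, 8.17 and 9.68 CPM in the KO (anestrus) libraries, against 529, 809, 48.2 and 130.1 CPM in the E libraries (log2 fold change -4.76 ± 0.85; edgeR adjusted p = 0.0019; -5.65 without KO (anestrus) replicate 2 and -4.07 without E replicate 2). Plin5 had 1.28, 1.35, 1.92 and 0.372 CPM in the KO (anestrus) libraries, against 62, 32.9, 16.8 and 14.6 CPM in the E libraries (log2 fold change -4.66 ± 0.80; edgeR adjusted p = 0.0014). Neither overlapped. Scarb1, the receptor through which luteal cells take cholesterol from high-density lipoprotein, had 284, 390.5, 309 and 261 CPM in the KO (anestrus) libraries, against 1187, 1507, 395 and 578 CPM in the E libraries (log2 fold change -1.56 ± 0.39; edgeR adjusted p = 0.014). Lipa and Nceh1, which split stored cholesterol esters, fell too (-0.75 ± 0.18 and -0.75 ± 0.15; edgeR adjusted p = 0.012 and 0.0033). Lrp1, an endocytic receptor, was the gene that rose (0.65 ± 0.10; edgeR adjusted p = 0.00074).

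WNT genes that passed were mostly lower, and transforming growth factor beta genes that passed moved in both directions. Of 27 tested WNT genes 10 fell and 3 rose (without E replicate 3 and DE replicate 3, 10 fell and 1 rose). Beside Wnt10b and Sfrp4, Sfrp2, a secreted WNT antagonist, had 0.227, 0.783, 0.25 and 0.838 CPM in the KO (anestrus) libraries, against 4.03, 8.6, 18.4 and 48.1 CPM in the E libraries (log2 fold change -5.22 ± 0.71; edgeR adjusted p = 0.00028; -4.33 without E replicate 4). The receptors Fzd4 and Lgr4 fell, with log2 fold changes of -0.98 ± 0.15 and -0.98 ± 0.15 (edgeR adjusted p = 0.00051 and 0.0007), as did Dkk3, of the dickkopf family (-1.52 ± 0.35; edgeR adjusted p = 0.0092). The count that rose was 1 without E replicate 1 or 3 or any 1 of the KO (anestrus) libraries. It lies near the 8.98% of all genes tested that rose and is not read as a result about the list. Wnt10b is also on the granulosa list, and Sfrp4 on the luteal list. Of 30 tested genes of the transforming growth factor beta family 6 rose and 3 fell, and 8 rose and 5 fell without E replicate 3 and DE replicate 3 (5 fell without E replicate 3 alone). The 3 that fell lie near the 8.98% of all genes tested that fell, and their count is not read as a result. They were Inhbb, Inhba and Grem1, which are also on the granulosa list, as are Amh and Bmpr1b, which rose. Those that rose included Amhr2, the receptor of anti-Müllerian hormone (0.99 ± 0.23; edgeR adjusted p = 0.0081), Tgfbr3, a coreceptor for inhibin (0.94 ± 0.13; edgeR adjusted p = 0.00023), and Tgfb2 (0.91 ± 0.18; edgeR adjusted p = 0.0037). Bmpr1b rose by 0.93 ± 0.19 (edgeR adjusted p = 0.0048).

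In the insulin-like growth factor system 4 of 16 tested genes rose (2 without E replicate 2) and 4 fell; without E replicate 3 and DE replicate 3, 5 rose and 4 fell. Igf1r rose by 0.63 ± 0.15 and Igfbp5, a binding protein, by 0.88 ± 0.22 (edgeR adjusted p = 0.0099 and 0.012). Igfbp4, another binding protein, fell (log2 fold change -1.23 ± 0.22; edgeR adjusted p = 0.0019). Stc1, a secreted glycoprotein that acts on its proteolysis, had 14.7, 17.3, 11.2 and 12.9 CPM in the KO (anestrus) libraries, against 111, 158, 128 and 206 CPM in the E libraries (log2 fold change -3.42 ± 0.31; edgeR adjusted p = 1.2e-05). Among 19 tested hormone receptor genes 3 rose and 2 fell (without E replicate 3 and DE replicate 3, 3 and 3). Of all genes tested 8.98% moved in each direction, and these counts are not read as a result about the list. Oxtr, the oxytocin receptor, had 31.2, 23.1, 24.7 and 20.9 CPM in the KO (anestrus) libraries, against 328, 253, 87.3 and 109 CPM in the E libraries (log2 fold change -2.96 ± 0.54; edgeR adjusted p = 0.0021). Pgr, the progesterone receptor that LH induces before ovulation, had 0.529, 1.42, 0.667 and 1.96 CPM in the KO (anestrus) libraries, against 3.25, 5.35, 38.7 and 3.52 CPM in the E libraries. E replicate 3 stood out, and Pgr did not pass with it (log2 fold change -3.49 ± 1.22; edgeR adjusted p = 0.062) or without it (-1.89; adjusted p up to 0.28 over the libraries left out).

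Of 25 tested genes of the LH surge and ovulation 4 rose and 3 fell, and with 1 library left out 2 to 4 rose (2 without KO (anestrus) replicate 1, 3 or 4 or E replicate 4) and 1 to 3 fell (1 without KO (anestrus) replicate 2 or E replicate 2); without E replicate 3 and DE replicate 3, 6 rose and 3 fell. Beside 8.98% of all genes tested in each direction, these counts too are not read as a result about the list. Has2, the hyaluronan synthase of the expanding cumulus, had 5.44, 6.98, 10.3 and 10.1 CPM in the KO (anestrus) libraries, against 0.614, 0.892, 0.785 and 0.833 CPM in the E libraries (log2 fold change 3.37 ± 0.41; edgeR adjusted p = 0.0001). Rgcc, a regulator of the cell cycle, fell (log2 fold change -1.73 ± 0.41; edgeR adjusted p = 0.011). In edgeR 0 of 35 cell cycle genes passed, with a median log2 fold change of 0.35 (6 at an unadjusted p under 0.05; DESeq2 0; limma voom 14; edgeR 1 without E replicate 3 and DE replicate 3). Bub1b, a mitotic checkpoint kinase, had 109, 101, 107 and 118 CPM in the KO (anestrus) libraries, against 76.1, 59, 68.8 and 71.9 CPM in the E libraries, without overlap (log2 fold change 0.66 ± 0.25; edgeR adjusted p = 0.086, and 0.022 without E replicate 3 and DE replicate 3). Of 24 tested genes of matrix remodelling 5 rose (3 without KO (anestrus) replicate 1 or 3 or E replicate 3) and 2 fell (1 without KO (anestrus) replicate 3 or E replicate 4). The proteoglycan-cleaving enzymes Adamts15 and Adamts5 rose by 2.41 ± 0.39 and 1.86 ± 0.32 (edgeR adjusted p = 0.00091 and 0.0015). Timp2, a metalloproteinase inhibitor, rose by 0.97 ± 0.15 (edgeR adjusted p = 0.00066) and Mmp14, a membrane metalloproteinase, fell (-0.57 ± 0.13; edgeR adjusted p = 0.0099). Of 20 tested genes of collagen and matrix 5 fell and 0 rose. Lum, a collagen-binding proteoglycan, had 68.2, 88.6, 91.7 and 84.4 CPM in the KO (anestrus) libraries, against 169, 212, 444 and 385 CPM in the E libraries (log2 fold change -1.86 ± 0.29; edgeR adjusted p = 0.00068), and Fn1, fibronectin, and Col14a1, a collagen, fell (-1.59 ± 0.29 and -1.69 ± 0.38; edgeR adjusted p = 0.002 and 0.008).

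Vessel genes were lower by modest amounts. Of 18 tested endothelial genes 9 fell and 1 rose, with a median log2 fold change of -0.49; 12 fell and 1 rose without E replicate 3 and DE replicate 3. Their summed level was 584 to 642 CPM in the KO (anestrus) libraries, against 701 to 1053 CPM in the E libraries, without overlap. Pecam1, an adhesion molecule of endothelial junctions, had 50.8, 59, 56.1 and 59.8 CPM in the KO (anestrus) libraries, against 92.8, 126, 89.2 and 96.6 CPM in the E libraries (log2 fold change -0.84 ± 0.13; edgeR adjusted p = 0.0006). Cdh5, the endothelial cadherin, Kdr and Flt1, the receptors of Vegfa, and Nos3, the endothelial nitric oxide synthase, fell, with log2 fold changes of -0.69 ± 0.15, -0.54 ± 0.12, -0.80 ± 0.16 and -1.12 ± 0.15 (edgeR adjusted p = 0.007, 0.008, 0.0034 and 0.00021). Vwf, the von Willebrand factor, rose by 1.01 ± 0.26 (edgeR adjusted p = 0.017; up to 0.056 without E replicate 1 or 2). Angpt2, an angiopoietin of remodelling vessels, had 52, 74.8, 62.8 and 68.5 CPM in the KO (anestrus) libraries, against 23.4, 26.8, 19.5 and 16.6 CPM in the E libraries (log2 fold change 1.58 ± 0.25; edgeR adjusted p = 0.00072), opposite in direction to Vegfa. Of 16 tested angiogenic factor genes 2 rose (1 without E replicate 1, 3 or 4) and 2 fell (1 without KO (anestrus) replicate 2 or 3 or E replicate 2 or 4).

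Several lists of markers of other cells gave no call in edgeR, and others gave some. Of all genes tested 8.98% rose and 8.98% fell. The macrophage counts lie near these shares and are not read as a result about the list. Of 18 tested macrophage and antigen presentation genes 2 rose and 2 fell (without E replicate 3 and DE replicate 3, 3 and 3). Mertk, an efferocytosis receptor, and Csf1r, the receptor of colony-stimulating factor 1, rose by 1.05 ± 0.16 and 0.58 ± 0.12 (edgeR adjusted p = 0.00057 and 0.0041). Ctss and Cd68, lysosomal proteins, fell (-1.02 ± 0.31 and -1.02 ± 0.32; edgeR adjusted p = 0.034 and 0.041). The call of Ctss ended without KO (anestrus) replicate 2, 3 or 4 or E replicate 2, 3 or 4 (adjusted p up to 0.089), and that of Cd68 without any 1 of the KO (anestrus) libraries or of E replicates 2 and 4 (up to 0.10). In edgeR 0 of 12 oviduct genes, 11 of smooth muscle, 10 of adipocytes, 10 of lymphocytes, 5 of erythrocytes, 4 of neutrophils and 13 of the mitochondrial genome passed. Of these 65 genes together 8 had an unadjusted p under 0.05, DESeq2 called 6 and limma voom 3; without E replicate 3 and DE replicate 3 1 neutrophil gene rose in edgeR. Ovgp1, the oviductal glycoprotein, had 1.36, 36.2, 5.83 and 35.6 CPM in the KO (anestrus) libraries, against 2.02, 2.93, 4517 and 1.3 CPM in the E libraries. Its log2 fold change was -5.84 ± 2.40 with E replicate 3 (edgeR adjusted p = 0.11) and 3.16 without E replicate 3 and DE replicate 3 (0.032), when 4 of the 12 oviduct genes rose. Lcn2, a lipocalin of neutrophils and epithelia, had 98.6, 56.1, 204 and 53.3 CPM in the KO (anestrus) libraries, against 2.19, 2.48, 246 and 4.35 CPM in the E libraries, and passed without E replicate 3 and DE replicate 3 (5.08, edgeR adjusted p = 0.0031; 0.69 and 0.75 with them). Of 12 tested genes of the ovarian surface epithelium 3 fell and 0 rose (without E replicate 3 and DE replicate 3, 3 and 1), among them Aldh1a2, a retinaldehyde dehydrogenase (-0.96 ± 0.20; edgeR adjusted p = 0.0046). Actn3, an actinin of fast muscle fibres, had 34.7, 52, 44.6 and 44.2 CPM in the KO (anestrus) libraries, against 2.46, 2.36, 4.47 and 4.07 CPM in the E libraries (log2 fold change 3.72 ± 0.32; edgeR adjusted p = 6.0e-06). Of 4 tested skeletal muscle genes Actn3 rose and 1 fell (0 without KO (anestrus) replicate 2, 3 or 4 or E replicate 1 or 4), while Acta1 and Tnnt3, other muscle fibre genes, had at most 26 counts in any of the 8 libraries.

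**Figure D4:**
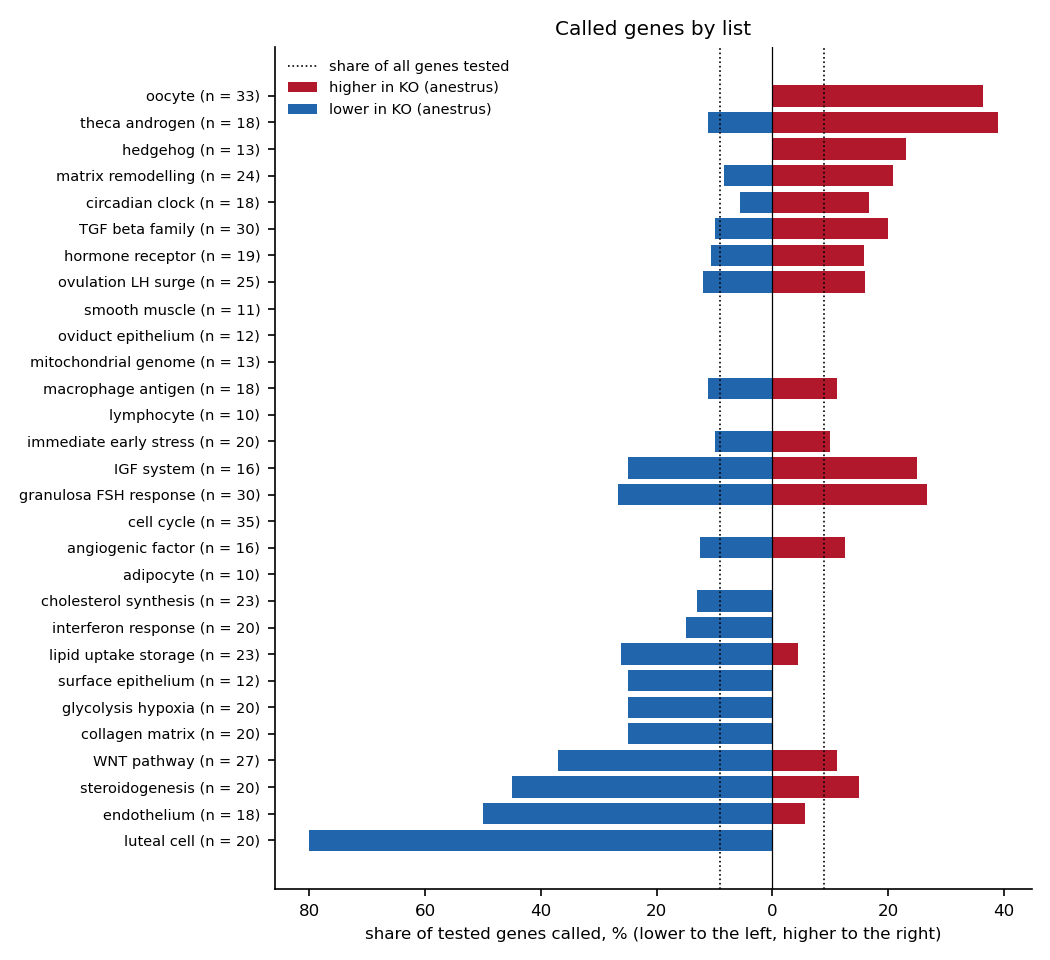
Share of tested genes in each list that were called (horizontal axis, %), lower in KO (anestrus) to the left in blue and higher to the right in red, for lists with at least 10 tested genes (vertical axis, n in brackets). The dotted lines mark the share of all genes tested, 8.98% in each direction; luteal genes had 16 of 20 lower and 0 higher, and oocyte genes 12 of 33 higher and 0 lower.

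Glycolysis and interferon response genes that passed were all lower, and clock and immediate early genes that passed moved in both directions. Of all genes tested 8.98% rose and 8.98% fell. The edgeR counts of interferon, clock and immediate early genes lie near these shares and are not read as results about the lists. Of 18 tested clock genes 3 rose and 1 fell (2 fell without E replicate 1; without E replicate 3 and DE replicate 3, 4 rose and 1 fell). Rora, a nuclear receptor of the clock, had 46.4, 38.4, 52.3 and 41.4 CPM in the KO (anestrus) libraries, against 142, 124, 96 and 154 CPM in the E libraries (log2 fold change -1.53 ± 0.36; edgeR adjusted p = 0.0099), while Cry1, a repressor of the clock, and Hlf, a clock output factor, rose by 0.69 ± 0.16 and 1.48 ± 0.35 (edgeR adjusted p = 0.0079 and 0.011). Of 20 tested immediate early and stress genes 2 rose (0 without KO (anestrus) replicate 4 or E replicate 4, and 1 without any other KO (anestrus) library or E replicate 3) and 2 fell; without E replicate 3 and DE replicate 3, 1 rose and 3 fell. Those that fell were Fosl2, an AP-1 factor (-1.40 ± 0.24; edgeR adjusted p = 0.0015), and Dusp1, a phosphatase of stress kinases (-2.33 ± 0.54; edgeR adjusted p = 0.0093; -1.70 without E replicate 1). Of 20 tested interferon response genes 3 fell, among them Oas2, an antiviral oligoadenylate synthetase (-1.65 ± 0.39; edgeR adjusted p = 0.011); 8 fell without KO (anestrus) replicate 1, 7 without E replicate 1 and 1 without KO (anestrus) replicate 3 or 4. Of the 20, 13 had an unadjusted p under 0.05, DESeq2 called 9 and limma voom 7. Of 20 tested genes of glycolysis and hypoxia 5 fell and 0 rose, led by Pfkp, the platelet phosphofructokinase, with 34.7, 34.4, 29.2 and 32.9 CPM in the KO (anestrus) libraries, against 82.2, 66.9, 63.7 and 70.5 CPM in the E libraries (log2 fold change -1.11 ± 0.13; edgeR adjusted p = 7.9e-05).

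The E libraries were also set against the other stages, to place the E levels among the stages. With all libraries 0 of 16944 genes passed between E and DE (1796 at an unadjusted p under 0.05; DESeq2 10; limma voom 0) and 0 between E and PE (3170; DESeq2 337; limma voom 2489). Without E replicate 3 and DE replicate 3 edgeR called 2750 genes between E and DE, 666 higher and 2084 lower in E, and 2656 between E and PE, 675 higher and 1981 lower in E. Without E replicate 3 alone they were 1039 and 1847, and without PE replicate 2 alone 279 passed between E and PE. These comparisons share the E libraries with the comparison above, so their values are given side by side only. E replicate 3 and DE replicate 3 were left out because of their own expression levels, so differences between the stages in that setting follow in part from that choice and are given as descriptions, as E minus DE or PE. Hsd3b1 differed by 0.59 ± 0.23 between E and DE and 0.59 ± 0.23 between E and PE with all libraries, and by 0.95 ± 0.20 and 0.72 ± 0.19 with both left out. Cyp11a1 differed by 0.83 ± 0.34 between E and DE and 1.05 ± 0.34 between E and PE with all libraries, and by 1.16 ± 0.34 and 1.25 ± 0.31 with both left out. Both steroid enzymes had their highest mean in E under either setting. Scarb1 differed by 0.91 ± 0.38 between E and DE and 1.21 ± 0.39 between E and PE with all libraries, and by 1.45 ± 0.34 and 1.45 ± 0.31 with both left out. Dhcr7 differed by 1.32 ± 0.45 between E and DE and 1.5 ± 0.46 between E and PE with all libraries, and by 1.99 ± 0.45 and 1.67 ± 0.40 with both left out. These genes of cholesterol uptake and synthesis were thus also highest on average in E. Pgr differed by -2.53 ± 0.99 between E and DE and -2.60 ± 0.99 between E and PE with all libraries, and by -4.55 ± 0.86 and -4.25 ± 0.83 with both left out. Adamts15 differed by -0.67 ± 0.38 between E and DE and -0.81 ± 0.38 between E and PE with all libraries, and by -1.32 ± 0.26 and -1.18 ± 0.24 with both left out. Pgr and Adamts15 had their lowest mean among the cycling groups in E. The 12 oviduct genes summed to 210 CPM in DE replicate 3 and 3757 to 7886 CPM in the other DE libraries. They summed to 3582 to 5956 CPM in the PE libraries. Pgr had 37, 84, 493 and 38 counts in the E libraries, against 951, 410, 80 and 2071 in the DE libraries. Adamts15 had 82, 65, 179 and 94 counts in the E libraries, against 175, 245, 65 and 213 in the DE libraries. Whether these differences follow the oviduct genes was not tested. Fn1 differed by -0.67 ± 0.28 between E and DE and -0.76 ± 0.28 between E and PE with all libraries, and by -0.99 ± 0.26 and -0.87 ± 0.25 with both left out. None of these differences passed with all libraries (edgeR adjusted p 0.20 to 0.53).

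Experiment 1 held 3 libraries labelled Fshb(-/-) and 3 labelled WT, with no stage given, and shares no library with experiment 3. Its Fshb counts were 68, 79 and 82 in the libraries labelled Fshb(-/-), against 1, 1 and 0 counts in those labelled WT. They were thus higher in the libraries labelled as lacking the gene, and each direction in experiment 1 rests on those labels. Its libraries titled Het had 43, 60 and 106 Fshb counts. The E libraries of experiment 3, also labelled WT, had 50, 170, 0 and 60, so only replicate 3 was as low as WT of experiment 1. What this means for the genotype of the E libraries was not tested. In experiment 1, 1355 of 17223 genes passed between Fshb(-/-) and WT (7.87%), 780 higher (4.53%) and 575 lower (3.34%); 456 to 597 passed without any 1 of the libraries labelled Fshb(-/-) or of WT replicates 1 and 2. Of the 16091 genes tested in both experiments 2983 were called between KO (anestrus) and E and 1307 between Fshb(-/-) and WT, and 729 were called in both. These made up 24.4% of the calls of KO (anestrus) minus E, while 8.12% of all genes tested in both were called in experiment 1; they made up 55.8% of the calls of experiment 1, while 18.5% of all were called in KO (anestrus) minus E. In 728 of the 729 the direction was the same, 390 higher and 338 lower; the exception was the predicted gene Gm7049. No gene passed the test of the difference between both contrasts (0 of 18288; 1740 at an unadjusted p under 0.05; DESeq2 61; limma voom 5).

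**Figure D5:**
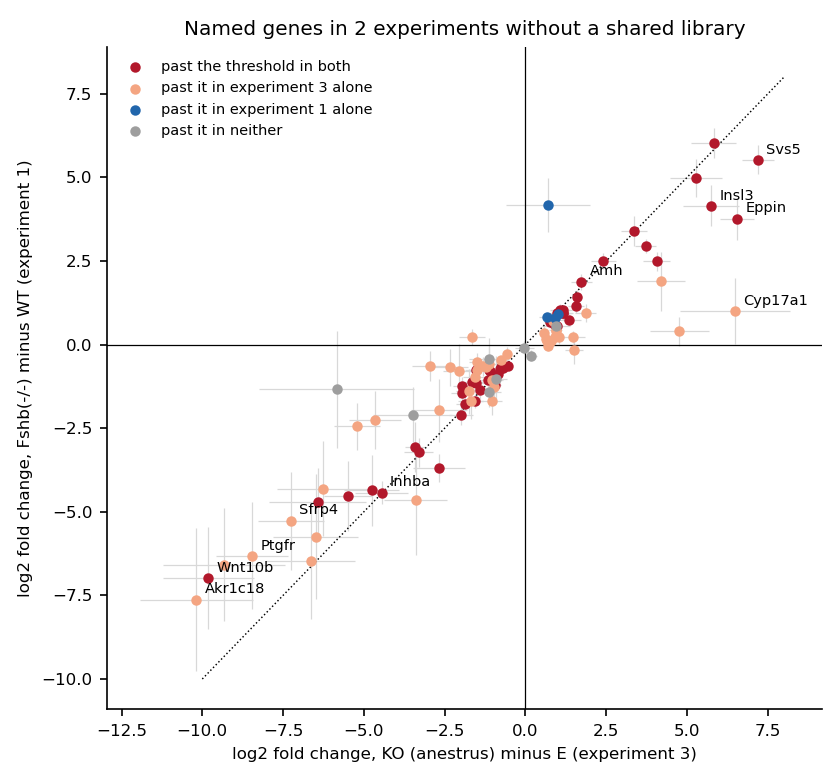
Log2 fold change of Fshb(-/-) minus WT in experiment 1 (vertical axis) against that of KO (anestrus) minus E in experiment 3 (horizontal axis) for 105 named genes, with SE bars and a dotted line of equal change. Red points passed an adjusted p of 0.05 in both (49 genes), orange points in experiment 3 alone (44), blue points in experiment 1 alone (4) and grey points in neither (8); Cyp17a1 lies far to the right of the line.

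The estimates of some named genes were nearly the same in both experiments and those of others lay further apart, though no difference passed its test. Inhba stood at 41.4, 30.4 and 37.4 CPM in the libraries labelled Fshb(-/-), against 668, 1181 and 497 CPM in those labelled WT (log2 fold change -4.42 ± 0.35; edgeR adjusted p = 0.00075, beside -4.45 in experiment 3). Amh gave 1.88 ± 0.23 (0.0031; 1.73 in experiment 3), Hsd17b3 4.98 ± 0.56 (0.0021; 5.28) and Has2 3.39 ± 0.44 (0.0038; 3.37). Svs5 stood at 80.4, 109 and 101 CPM in the libraries labelled Fshb(-/-), against 1.39, 0.989 and 3.86 CPM in those labelled WT (log2 fold change 5.53 ± 0.43; edgeR adjusted p = 0.00078), beside 7.20 in experiment 3. Eppin gave 3.77 ± 0.63 (0.01; 6.54 in experiment 3), Boc 0.11 ± 0.17 (0.74; 0.80) and Sdc4 -0.20 ± 0.29 (0.72; 0.62), further apart than Inhba, Amh, Hsd17b3 and Has2. Akr1c18 had 1.27, 2.27 and 0.799 CPM in the libraries labelled Fshb(-/-), against 17.2, 827 and 2.44 CPM in those labelled WT, a spread over which it did not pass (log2 fold change -7.63 ± 2.15; edgeR adjusted p = 0.073). Cyp17a1 had 807, 1593 and 819 CPM in the libraries labelled Fshb(-/-), against 524, 817 and 260.5 CPM in those labelled WT, with a log2 fold change of 1.01 ± 0.99 (edgeR adjusted p = 0.57). Its difference between the experiments was 5.44 ± 2.03 (unadjusted p = 0.014; edgeR adjusted p = 0.47), which did not pass. The libraries that Cyp17a1 is set against thus differed, at 2.50 to 25.2 CPM in the E libraries of experiment 3 and 260 to 817 CPM in those labelled WT in experiment 1.

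Promoters of the panel and of the genes with the largest changes were searched on both strands for 3 short motifs. RefSeq held 32 promoters of 300 bases for 26 of the 32 genes searched. The SF-1 and LRH-1 core AAGGTCA, bound by regulators of steroid genes, was in 0 of the 32 and in 4.72% of all promoters in the table. The cyclic AMP response element TGACGTCA was in 0 of the 32 and in 1.79% of all. The RUNX core ACCACA was in 4 of the 32, those of Cyp11a1, Cyp19a1, Lhcgr and Tnfrsf9, and in 16.8% of all. A match describes letters in this window and not a bound site, and a missing match says nothing about the factor.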

How the data were processed

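Ovary RNA was sequenced as polyadenylated paired-end libraries, per the labels' protocols, and quantified with Salmon on GRCm38, per the submitters' processing notes, which also name DESeq2. The authors deposited 1 table of expected counts, of which 10.5 to 20.1% per library were not whole; these estimated counts were rounded. Names came from GENCODE M21, which matched 53307 of 54347 IDs with their version. The 4 groups of experiment 3 were fitted together in edgeR 4.0.16 (R 4.3.3; filterByExpr, TMM, robust quasi-likelihood, Benjamini-Hochberg 0.05). CPM values use TMM library sizes. Standard errors were the fold change divided by the square root of F. Fits were tested on simulated data. Counts were drawn from the mean of each gene over all libraries of experiment 3, with few genes changed and no library set apart. The rates that follow therefore need not hold for the data themselves. Of 100 genes changed 2-fold 60 were recovered, and of 100 changed 4-fold 74, with 4 false calls among 16214 genes. A gene that did not pass may thus still have changed. Alternatives used DESeq2 1.42.0, limma 3.58.1 and other filters and library sets. Counting intervals are exact, at 95%, and cover counting error only. Same-numbered KO (anestrus) and E libraries did not deviate together (correlations -0.14 to 0.15). Replicates of a group differed beyond sampling noise.

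The genes and lists were chosen with earlier results of these data known. Genes were named by a rule: a fixed panel, the 10 largest changes in each direction and the leading members of each list. Outside the rule, Hsd3b6, Vwf, Gm7049 and the Wfdc and Sdc4 genes near Svs5 were chosen after their values were seen.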

Additional observations from a re-analysis of the deposited data

Results flagged for a closer look

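In 15 of 232 gene groups checked (6.47%), 1 library lay far from the other 3 of its group. The test was of the gap over the range (Dixon), whose cutoff flags about 1 in 20 groups of normally distributed values. It was applied to CPM, where a gene with counts in only 1 library of a group is always flagged. That rate therefore need not hold here, as for Svs6 and Sult1e1 in the E libraries. E libraries accounted for 11 of the 15.

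E replicate 3 was the outlying library in 5 genes and in the oviduct list. Ovgp1 stood at 4517 CPM there, against at most 2.93 CPM in the other E libraries, Lcn2 at 246 CPM (at most 4.35 CPM), Wfdc2 at 59.5 CPM (at most 0.263 CPM) and Pgr at 38.7 CPM (at most 5.35 CPM). Fdxr was lowest there, at 238 CPM, with at least 322 CPM in the others. The mean log2(CPM + 1) of the 12 oviduct genes was 5.65, with 1.54, 1.68 and 1.75 in the others.

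E replicate 2 was highest for the theca genes Cyp17a1, at 25.2 CPM (others at most 5.88 CPM), and Insl3, at 3.25 CPM (at most 1.05 CPM). E replicate 4 was highest for Pdgfra, at 362 CPM (at most 258 CPM), and for Sult1e1, at 0.463 CPM with 0 in the others. E replicate 1 was highest for Kit, at 82.1 CPM (at most 52.1 CPM), and for Svs6, at 0.175 CPM with 0 in the others.

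KO (anestrus) replicate 3 was highest for Pdgfra, at 997 CPM (others at most 804 CPM), and for Serpina3a, at 29.2 CPM (at most 6.27 CPM). KO (anestrus) replicate 2 was highest for Plin4, at 32.9 CPM (at most 9.68 CPM), and lowest for Mertk, at 56.6 CPM (at least 66.8 CPM).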

How the results depend on the processing

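The count of genes called between KO (anestrus) and E (3042) stayed within 1.5-fold with DESeq2, other size factors, other filters, the compared groups alone and E replicate 3 and DE replicate 3 left out. It was 5288 with limma voom, 1920 to 2779 with 1 library left out, and 4884 with E replicate 3 left out and the compared groups fitted alone; the cause was not tested. E against DE gave 10 calls with DESeq2, 0 to 1039 with 1 library left out and 2750 without E replicate 3 and DE replicate 3. E against PE gave 337 with DESeq2, 2489 with limma voom, 0 to 1847 with 1 library left out and 2656 without both. Experiment 1 (1355) gave 2419 with DESeq2, 3589 with limma voom and 456 to 1031 with 1 library left out. The difference between experiments gave 61 with DESeq2, 5 with limma voom and 0 to 1 with 1 library left out.

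Over 116 named genes and all alternatives 1842 of 1972 values kept their direction and their side of the threshold, 37 newly passed, 78 no longer passed and 15 turned in sign. Of 102 called genes 89 stayed called with each library left out in turn. None of the 3 genes that turned in sign was called. Inha turned to 0.02 with limma voom, 0.01 with the replicate block, 0.06 without KO (anestrus) replicate 3, 0.08 without E replicate 2 and 0.00 in the settings without E replicate 3 (-0.18 to 0.08 over the libraries left out). Ovgp1 turned to 0.81 with limma voom, 3.17 without E replicate 3 and 3.16 in the other settings without it (-6.32 to 3.17 over the libraries left out). Wfdc2 turned to 3.26 with limma voom and 4.46 in the settings without E replicate 3 (-2.23 to 4.46 over the libraries left out).

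The replicate numbers did not pair the libraries: the correlations of KO (anestrus) and E libraries of the same number were 0.15, -0.05, -0.14 and -0.03. With the replicate block 2388 genes were called between KO (anestrus) and E, and 911 in experiment 1. Cyp19a1, Hsd17b7, Fdps, Ctss and Cd68 no longer passed under the block (edgeR adjusted p 0.052 to 0.079).

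Depth limits genes near absence: a count of 0 puts the upper limit at 3 counts, out of 10878724 to 15925103 per library.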
